A study of Mus musculus with 28 samples.

Results

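The serpins encoded by the Serpina1 and Serpina3 gene clusters, together with their neighbour Serpina6, were followed in the liver of mice that overexpress SIRT6. The 10 genes were chosen by symbol, and all 10 were found among the 49585 features of the count table. They are Serpina1a, Serpina1b, Serpina1c, Serpina1d and Serpina1e, then Serpina3k, Serpina3m, Serpina3n and Serpina3g, and Serpina6. All 10 passed the filter on low values and were among the 21583 expressed genes tested. Single-end RNA-seq was done on livers of C57BL/6JOlaHsd mice of 5 to 7 months, in 4 groups of 7 libraries. Each sex had a group of wild type (WT) and a group of SIRT6-tg mice, all fasted before the liver was taken. The SIRT6-tg mice carried an extra Sirt6 gene throughout the body and came from 1 transgenic line, so that the effect of SIRT6 and that of this line's insertion cannot be told apart. WT mice were their littermates without the transgene.

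Serpins are proteins with an exposed reactive centre loop that a target protease cuts, after which the serpin traps the enzyme. The Serpina1 genes are the mouse copies of the gene for α1-antitrypsin, the liver-derived plasma inhibitor of neutrophil elastase, of which humans have a single gene. The Serpina3 genes are the expanded mouse counterparts of α1-antichymotrypsin, an inhibitor of chymotrypsin-like proteases and an acute phase protein. Serpina6 encodes corticosteroid-binding globulin, a serpin that carries glucocorticoids in blood and inhibits no known protease. Hepatocytes secrete most of these proteins, whereas Serpina3g is known from activated immune cells, where it acts inside the cell.

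All 10 genes lie on chromosome 12 within 768 kb (GRCm38, Gencode vM21 models). On the minus strand are Serpina6 (ENSMUSG00000060807.7) at chr12:103646630-103657212, Serpina1b (ENSMUSG00000071178.11) at chr12:103728156-103830373 and Serpina1d (ENSMUSG00000071177.4) at chr12:103763594-103773592. They are followed by Serpina1a (ENSMUSG00000066366.14) at chr12:103853589-103863562, Serpina1c (ENSMUSG00000079015.2) at chr12:103894926-103904887 and Serpina1e (ENSMUSG00000072849.10) at chr12:103946931-103958975. On the plus strand are Serpina3g (ENSMUSG00000041481.16) at chr12:104236245-104241939, Serpina3k (ENSMUSG00000058207.6) at chr12:104338486-104346144, Serpina3m (ENSMUSG00000079012.11) at chr12:104338486-104394257 and Serpina3n (ENSMUSG00000021091.8) at chr12:104406729-104414329. The annotated model of Serpina3m begins at the first exon of Serpina3k, with which it shares 60 exonic bases. Of the exonic bases of Serpina1c, 31.5% also belong to the annotated gene B430119L08Rik.

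The Serpina1 genes are close copies that differ most clearly in the loop that meets the protease. Their coding sequences were identical at 96.3% to 98.5% of aligned bases in every pair. The stretches below, from the GRCm38 coding models, run from the hinge of the loop to 4 codons past the codon of the residue before the bond that is cut. They are read 5′ to 3′ on the coding strand, each lies in a single exon, and the capitals mark the codon of that residue.
Serpina1a, chr12:103853774-103853830, minus strand: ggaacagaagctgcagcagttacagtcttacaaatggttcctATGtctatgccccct
Serpina1b, chr12:103728341-103728397, minus strand: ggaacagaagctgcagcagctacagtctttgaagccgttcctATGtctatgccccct
Serpina1c, chr12:103895111-103895167, minus strand: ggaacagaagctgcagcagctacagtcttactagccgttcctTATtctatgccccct
Serpina1d, chr12:103763779-103763835, minus strand: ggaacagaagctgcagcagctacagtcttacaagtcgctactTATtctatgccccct
Serpina1e, chr12:103947117-103947173, minus strand: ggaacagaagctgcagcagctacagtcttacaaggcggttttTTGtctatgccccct

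The capitals separate the genes into 3 kinds. Serpina1a and Serpina1b have the methionine codon ATG, Serpina1c and Serpina1d the tyrosine codon TAT, and Serpina1e the leucine codon TTG. Over the 57 bases shown, Serpina1c and Serpina1d differed at 4 positions, and the other pairs at 6 to 8. The stretch that codes for the start of the hinge was the same in all 5 genes.

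The Serpina3 genes share the hinge but not the stretch after it. Their loops are shown because the 4 genes differed in response to genotype and sex. The capitals mark the codons between the hinge and the conserved serpin signature, again 5′ to 3′ on the coding strand and each within 1 exon.
Serpina3k, chr12:104345269-104345331, plus strand: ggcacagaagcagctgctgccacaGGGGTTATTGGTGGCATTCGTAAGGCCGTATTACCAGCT
Serpina3m, chr12:104393769-104393837, plus strand: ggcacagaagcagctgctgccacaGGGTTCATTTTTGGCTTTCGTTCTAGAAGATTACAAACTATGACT
Serpina3n, chr12:104413448-104413516, plus strand: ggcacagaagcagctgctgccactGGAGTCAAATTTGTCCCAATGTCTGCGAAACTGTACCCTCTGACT
Serpina3g, chr12:104241072-104241140, plus strand: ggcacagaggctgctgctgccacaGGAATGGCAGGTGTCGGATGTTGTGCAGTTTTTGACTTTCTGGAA

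Coding identity within the Serpina3 genes was 92.5% between Serpina3k and Serpina3m and 82.4% to 86.1% in the other pairs. Gaps were left out of these values. The coding model of Serpina3g has 747 bases against 1257 in the others, so its pairs, which set both ends of that range, compare only part of the sequence. Serpina6 has no match to the hinge codons' translation and is not shown.

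These copies limit what a count can tell. The authors counted only reads that mapped to a single place, so a read from a stretch that 2 copies share was lost. Of the windows of 50 bases in the transcripts of each gene, the share found in no other gene's transcript was 20.7% for Serpina1c, 42.4% for Serpina1a, 49.1% for Serpina1d, 65.4% for Serpina1e and 70.6% for Serpina1b. For Serpina3m, Serpina3g, Serpina3k and Serpina3n it was 80.9%, 84.5%, 85.96% and 93.1%, and for Serpina6 100%. The paper gives no read length, and the unique share depends on it. With windows of 100 bases it was 30.7% for Serpina1c, 57.2% for Serpina1a, 70.7% for Serpina1d, 85.2% for Serpina1b and 85.6% for Serpina1e. Serpina1c shared 69.4% of its windows of 50 bases with Serpina1a, so the split of reads between these 2 is uncertain. The strand setting of the counting is not given in the sources used here, and reads from the exons of Serpina1c that B430119L08Rik also holds cannot be assigned to 1 of the 2.

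The total of the counts was 18758863 to 35393069 per library, and the lowest count of any of the 10 genes in a library was 109, for Serpina3g. Sirt6 itself was at 1.69 to 3.23 CPM (counts scaled to a library of 1000000) in male WT, 198 to 358 in male SIRT6-tg, 1.80 to 6.21 in WT females and 16.4 to 50.2 in SIRT6-tg females, so every library carried the level of its label, and the excess was lower in females. CPM were scaled by TMM factors, which set the level of most genes equal, and these factors were 1.06 to 1.17 in male WT against 0.821 to 0.993 in male SIRT6-tg libraries. Without these factors, all genes tested had a median log2 fold change between male genotypes of −0.22 in place of 0.056. The 6 hepatocyte markers, among them albumin, summed to 88433 to 179631 CPM over the 28 libraries. In males this sum was 88433 to 124716 CPM in WT and 111285 to 156256 CPM in SIRT6-tg libraries. Genes were tested with edgeR's quasi-likelihood test in 1 fit of all 28 libraries, with Benjamini-Hochberg adjustment over all 21583 genes, and a gene with an adjusted p under 0.05 was called. Standard errors (SE) are on the log2 scale. Each library came from a different mouse, and the p-values measure the spread between mice.

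The 10 genes were also summed in TMM-scaled CPM. Their sum was 14272.5 to 19799 CPM in male WT (median 16856) and 19482.5 to 27546 CPM in male SIRT6-tg libraries (median 23939). In females it was 10813 to 17347 CPM in WT (median 14520) and 11814 to 17288 CPM in SIRT6-tg libraries (median 13826). Scaled CPM do not add up to the same total in every library, so these sums are not shares of the transcriptome. With TMM factors of 1.06 to 1.17 in male WT, the scaling lowers the WT sums. With factors of 0.821 to 0.993, it raises the male SIRT6-tg sums. Shares of each library's own counts were not computed. Levels of different genes were compared per kb of exon. This length includes stretches shared between copies, from which reads were lost. Levels of genes with few unique windows, above all Serpina1c (20.7% against 85.96% for Serpina3k), are therefore understated. The orders below hold for this measure only and were not recomputed by unique windows. In male WT liver the highest mean levels were those of Serpina3k (2795 ± 501 CPM per kb, SD, n = 7) and Serpina1e (2409 ± 744), whose ranges overlapped. Below them came Serpina1b (1262 ± 107), Serpina1d (1020 ± 122) and Serpina1c (796 ± 145), each overlapping the next in this order, and then Serpina1a (522 ± 31.3), which overlapped neither neighbour. Serpina3n (163 ± 24.6), Serpina6 (149 ± 57.2) and Serpina3m (100.3 ± 15.3) formed a lower, overlapping set, and Serpina3g (20.8 ± 8.03) was below all of them in every library.

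The order was different in females. In female WT liver Serpina3k (1730 ± 503 CPM per kb, SD, n = 7), Serpina1b (1641 ± 283) and Serpina1d (1559 ± 132) were at the top and overlapped, while Serpina1e had the 9th rank of the 10 (107 ± 144). Serpina6 (490 ± 188) and Serpina3m (244 ± 47.6) stood higher per kb than in males. Serpina3g was again the lowest by mean (9.34 ± 2.68), although its highest library (14.6) exceeded the lowest library of Serpina1e (14.1).

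**Figure D1:**
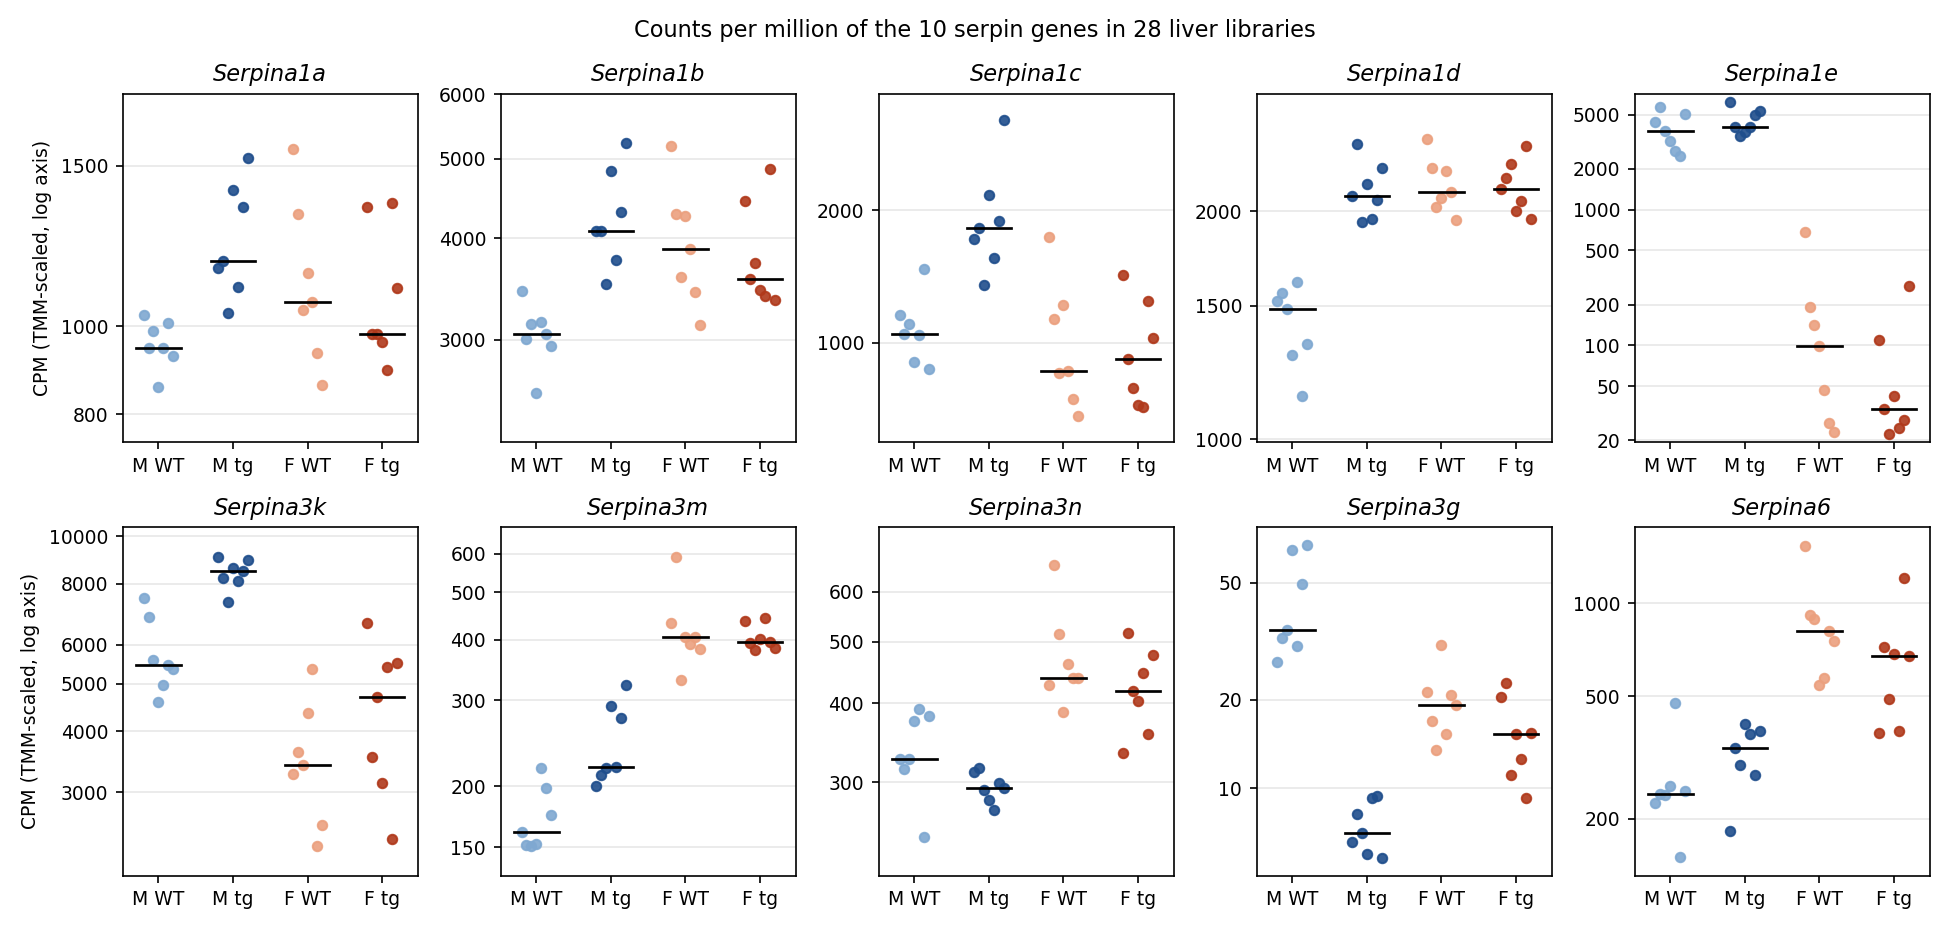
Expression in CPM (TMM-scaled, log axis, a different range in each panel) of the 10 genes in 28 liver libraries. Each point is 1 library, M and F stand for male and female, tg for SIRT6-tg, and the black line is the median of 7. The male SIRT6-tg points lie above all male WT points for Serpina1a, Serpina1b and Serpina1d and below them for Serpina3g, and Serpina1e is far lower in females than in males.

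The first comparison asked what the transgene changed in male liver. Of the 10 genes, 6 were higher and 1 was lower in SIRT6-tg males, against a background of 20.7% of all genes tested (4466 of 21583, of which 2089 were higher and 2377 lower). The median log2 fold change of the 10 was 0.43, against 0.056 over all genes. The 4 Serpina1 genes called, Serpina3k and Serpina3m rose by 1.31-fold to 1.81-fold, and Serpina3g fell. Serpina1e, Serpina3n and Serpina6 did not pass the test.

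Among the α1-antitrypsin genes, Serpina1c had the largest fitted rise. It was at 872 to 1469 CPM (median 1044) in male WT and at 1356 to 3215 CPM (median 1827) in male SIRT6-tg libraries. In 6 of the 7 SIRT6-tg libraries it was above every WT library, and the highest stood well apart from the rest. The log2 fold change was 0.86 (SE 0.20, adjusted p = 0.0021), and it was 0.68 without SIRT6-tg replicate 7. Serpina1d was at 1139 to 1613 CPM (median 1485) in WT and at 1936 to 2456 CPM (median 2093) in SIRT6-tg males. The groups did not overlap, and the log2 fold change was 0.59 (SE 0.086, adjusted p = 6.99e-06).

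Both genes with the methionine codon were also higher. Serpina1b went from 2586 to 3445 CPM (median 3047) in WT to 3513 to 5230 CPM (median 4083) in SIRT6-tg males, with no overlap, a log2 fold change of 0.48 (SE 0.11, adjusted p = 0.0019). Serpina1a was at 857 to 1029 CPM (median 947) in WT and at 1034 to 1529 CPM (median 1178) in SIRT6-tg males. These ranges only just failed to touch, and the log2 fold change was 0.39 (SE 0.12, adjusted p = 0.0204). Serpina1e was spread widely in both groups, at 2469 to 5660 CPM (median 3809) in WT and at 3473 to 6230 CPM (median 4080) in SIRT6-tg males, and its log2 fold change of 0.23 (SE 0.61, adjusted p = 0.85) was within that spread.

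Serpina3k, which encodes a plasma protease inhibitor also known as contrapsin, had the highest mean CPM of the 10 in both male groups. It was at 4578 to 7462 CPM (median 5459) in WT and at 7354 to 9076 CPM (median 8500) in SIRT6-tg males. Only the lowest SIRT6-tg library lay within the WT range, and the log2 fold change was 0.55 (SE 0.18, adjusted p = 0.0276). Serpina3m was at 151 to 218 CPM (median 162) in WT and at 200 to 323 CPM (median 219) in SIRT6-tg males. In 5 of the 7 SIRT6-tg libraries it was above every WT library, and the log2 fold change was 0.53 (SE 0.12, adjusted p = 0.0016). Serpina3n, the acute phase member of the cluster, was at 246 to 391.2 CPM (median 326) in WT and at 271 to 317 CPM (median 293) in SIRT6-tg males, and its log2 fold change of −0.19 (SE 0.11, adjusted p = 0.24) did not pass.

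Calls for rises of this size depended on scaling. Under library size alone, Serpina1a, Serpina1b, Serpina3k and Serpina3m kept a positive log2 fold change of 0.095 to 0.26 but lost their call, and Serpina3n was called lower (−0.48, adjusted p = 0.0040). Measured against the median of all genes, the values hardly moved. They were 0.33, 0.43, 0.49 and 0.47 under TMM and 0.31, 0.41, 0.48 and 0.45 under library size alone for Serpina1a, Serpina1b, Serpina3k and Serpina3m. A change of scaling shifts nearly all genes and their median alike, so this likeness was fixed beforehand. It does not test whether the rises depend on scaling. The calls of Serpina1a and Serpina3k were also lost under upper-quartile scaling and in some fits without 1 library. For Serpina1a these were the fits without WT replicate 4 or 7 or SIRT6-tg replicate 4 or 7, with a log2 fold change of 0.32 to 0.35. For Serpina3k they were the fits without WT replicate 3, 4, 5 or 7 or SIRT6-tg replicate 4 or 7, with 0.46 to 0.53.

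Serpina3g was the only one of the 10 genes called lower in SIRT6-tg males. It was at 26.9 to 67.5 CPM (median 34.6) in male WT and at 5.78 to 9.37 CPM (median 7.05) in male SIRT6-tg libraries. Every SIRT6-tg male was below every WT male, by a wide gap. The log2 fold change was −2.56 (SE 0.23, adjusted p = 1.33e-08), and it stayed between −2.84 and −2.46 in all 37 alternatives, with a call in each.

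Serpina6, the glucocorticoid carrier, was at 151 to 476.0 CPM (median 240) in male WT and at 183 to 407 CPM (median 340) in male SIRT6-tg libraries. The ranges overlapped almost fully, and the log2 fold change of 0.31 (SE 0.25, adjusted p = 0.44) did not pass the test. Without WT replicate 5, the highest WT library, the log2 fold change was 0.52, still without a call.

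**Figure D2:**
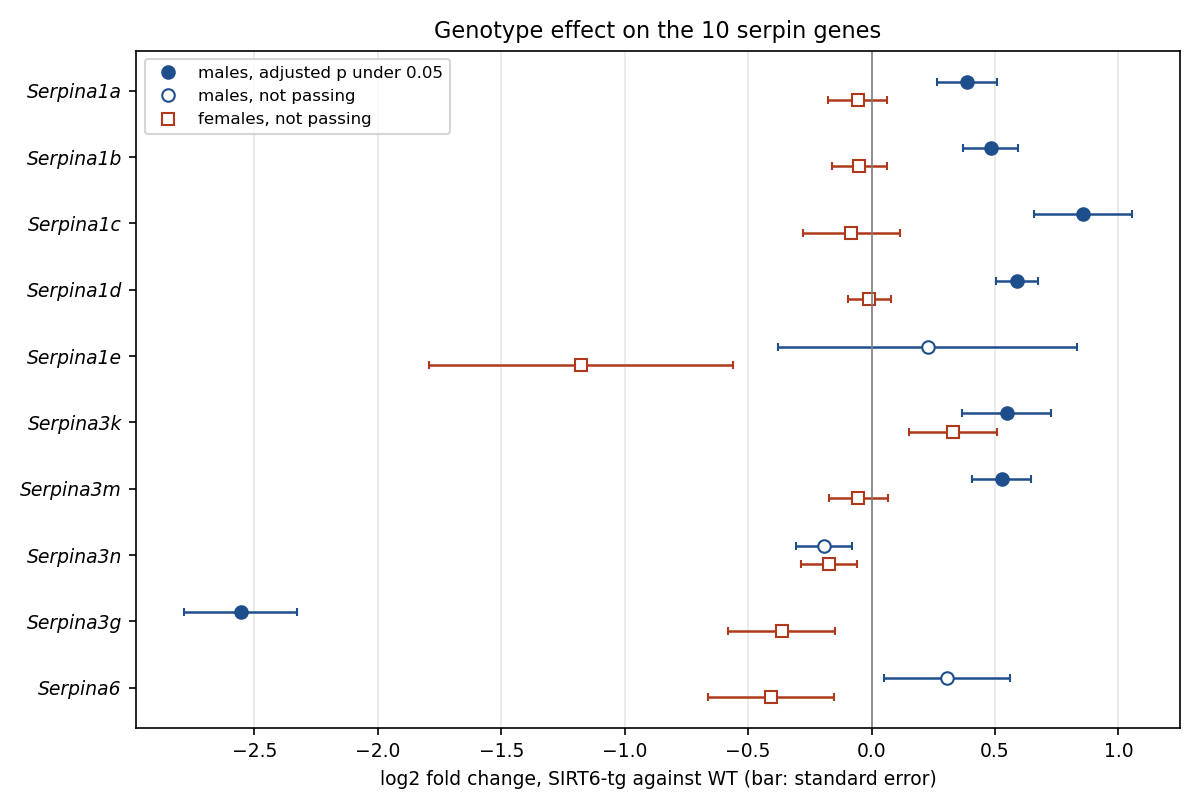
Log2 fold change of SIRT6-tg against WT for the 10 genes in males (blue circles) and females (red squares), with the standard error as a bar and filled symbols for an adjusted p under 0.05. In males 6 genes are filled to the right of 0 and Serpina3g is filled at −2.56, and in females no symbol is filled.

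The same comparison in females called none of the 10 genes with edgeR and none with DESeq2, and none had an unadjusted p under 0.05. Over all genes 0.0278% were called (6 of 21583), with 1212 at an unadjusted p under 0.05. The median log2 fold change of the 10 was −0.069. For Serpina1a, Serpina1b, Serpina1c, Serpina1d and Serpina3m the log2 fold changes lay between −0.082 and −0.0087, with SE of 0.086 to 0.20. Serpina1d, for example, was at 1947 to 2489 CPM (median 2119) in female WT and at 1953 to 2442 CPM (median 2141) in female SIRT6-tg libraries.

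Other members had female values further from 0 but with wide errors. Serpina1e had a log2 fold change of −1.18 (SE 0.62, unadjusted p = 0.067, adjusted p = 0.93). It was at 22.8 to 683 CPM (median 99.7) in female WT and at 22.3 to 275 CPM (median 33.7) in female SIRT6-tg libraries. The highest library in each group was several times its median, and the value was −0.21 without WT replicate 1 and −1.996 without SIRT6-tg replicate 7. Serpina3k was at 2332 to 5355 CPM (median 3404) in WT and at 2410 to 6657 CPM (median 4704) in SIRT6-tg females, a log2 fold change of 0.33 (SE 0.18, adjusted p = 0.94). Serpina6 had −0.41 (SE 0.25), Serpina3g −0.36 (SE 0.22) and Serpina3n −0.17 (SE 0.11), each with an adjusted p of 0.9999.

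The test of whether the genotype effect differed between the sexes called 5 of the 10 genes, against 5.04% of all genes (1088 of 21583). The transgene's level also differed between the sexes, so sex and dose of Sirt6 cannot be told apart. The effect was more positive in males for Serpina1d (by 0.60 on the log2 scale, SE 0.12, adjusted p = 0.0030), Serpina3m (0.58, SE 0.17, adjusted p = 0.0375), Serpina1b (0.53, SE 0.16, adjusted p = 0.0426) and Serpina1c (0.94, SE 0.28, adjusted p = 0.0446). It was more negative in males for Serpina3g (−2.19, SE 0.31, adjusted p = 0.00014).

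Of these 5 calls, that of Serpina3g held in all 36 alternatives and that of Serpina1d in all but library size alone (0.30, adjusted p = 0.060). The other 3 sat close to the threshold. Leaving out 1 library at a time, the calls of Serpina1b and Serpina1c were each lost in 18 of 28 fits and that of Serpina3m in 14, with log2 differences of 0.45 to 0.59, 0.76 to 1.04 and 0.47 to 0.65. The count of called genes was then 2 to 5. For Serpina1a (0.44, SE 0.17, adjusted p = 0.14), Serpina6 (0.71, SE 0.36, adjusted p = 0.28), Serpina1e (1.40, SE 0.86, adjusted p = 0.40) and Serpina3k (0.21, SE 0.25, adjusted p = 0.71) a difference between the sexes was not shown. Serpina3n had nearly equal effects in both sexes (difference −0.020, SE 0.16, adjusted p = 0.97).

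**Figure D3:**
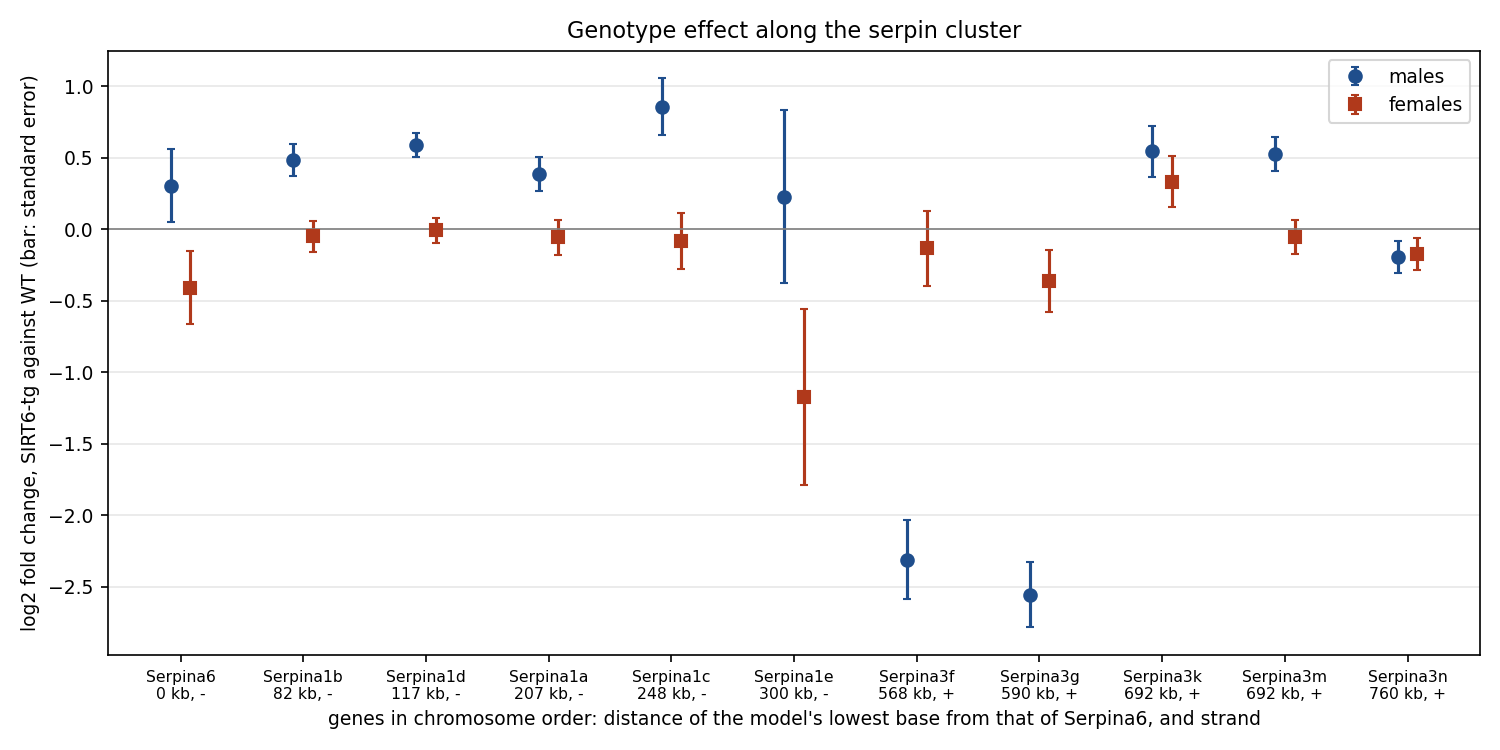
Log2 fold change of SIRT6-tg against WT in males (blue) and females (red), with the standard error as a bar, for the 10 genes and Serpina3f in chromosome order. Below each name stand the distance in kb from Serpina6 and the strand. In males the neighbours Serpina3f and Serpina3g lie at −2.31 and −2.56, and the other genes shown lie between −0.19 and 0.86.

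The neighbour of Serpina3g behaved alike. Serpina3f, which ends 15.1 kb before Serpina3g begins and is no member of the set of 10, was at 8.80 to 25.1 CPM (median 13.1) in male WT and at 1.97 to 4.29 CPM (median 3.33) in male SIRT6-tg libraries. Its log2 fold change was −2.31 (SE 0.28, adjusted p = 4.50e-07) in males and −0.13 (SE 0.26, adjusted p = 0.9999) in females. Of the expressed genes outside the set of 10, Serpina3f was also the one whose deviations from the group means were most like those of Serpina3g (Pearson r = 0.92 over 28 libraries), followed by Slamf8 (r = 0.87). These r are descriptions over libraries that share depth and scaling, among 14029 genes.

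Genes of the interferon gamma pathway were lower along with Serpina3g. The list of 14 held genes that respond to this T cell cytokine, the cytokine itself (Ifng) and its receptor genes Ifngr1 and Ifngr2. In SIRT6-tg males 13 of the 14 were lower and none was higher, against 20.7% of all genes called in either direction. Their median log2 fold change was −2.50. Ifng was at −2.82 and Ifngr1 at −0.44, and Ifngr2 (−0.26) did not pass the test. Those with the lowest adjusted p were Gbp5 (−2.98), Irf8 (−1.74) and Gbp2 (−3.08), which code for 2 guanylate-binding proteins and a transcription factor of myeloid cells. In females none of the 14 was called, and their median was −0.19.

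Markers of immune cells moved as well. All 7 T cell markers were lower in SIRT6-tg males, and their sum was 13.4 to 38.7 CPM in WT against 4.52 to 7.18 CPM in SIRT6-tg males. Cd8a (−3.67), Cd3e (−2.56) and Cd3g (−2.38), parts of the T cell receptor complex and its coreceptor, had the lowest adjusted p. All 6 macrophage and dendritic cell markers were lower, summing to 548 to 1707 CPM in WT against 240 to 431 CPM in SIRT6-tg males, led by Itgax (−3.09), Cd74 (−2.77) and Cd68 (−1.31). Of 4 B cell markers 3 were lower and 0 higher, with a median log2 fold change of −0.945. Their sum was 7.53 to 14.0 CPM in WT and 4.28 to 8.45 CPM in SIRT6-tg males, with overlap. Of 5 neutrophil markers tested 1 was lower (Csf3r), near the 20.7% of all genes called. No marker tested in these immune cell lists was at 0 in every male WT library. In females none of these markers was called, and the T cell sum was 5.00 to 15.2 CPM in WT and 5.37 to 11.5 CPM in SIRT6-tg libraries. Their part in the level of Serpina3g was not tested, and in whole liver fewer cells of a type and less RNA per cell cannot be told apart.

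The promoter windows of Serpina3g and Serpina3f each hold a match to TTCNNNGAA. These letters, the spaced palindrome that STAT factors are known to recognise, were searched on both strands of RefSeq promoters (GRCm38.p6, 250 bases before to 50 after the start), which were found for 7 of the 10 genes. A match was in that of Serpina3g alone of the 7, and in 9.55% of the 27025 genes with a promoter. With only 7 promoters searched in the set, this result cannot be told apart from that share. Serpina3f is outside the set and was added after its values were seen. Whether the match has a part in the level of either gene was not tested. The windows around the match in Serpina3g and Serpina3f lie before the annotated start and hold no annotated exon, and the capitals mark the match.
Serpina3g, chr12:104236084-104236137, plus strand: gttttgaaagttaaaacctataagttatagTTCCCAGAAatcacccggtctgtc
Serpina3f, chr12:104214393-104214446, plus strand: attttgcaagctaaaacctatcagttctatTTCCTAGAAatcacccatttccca

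The promoters of the 5 Serpina1 genes are near copies too. GTTAAT, the half-site of the palindrome bound by HNF1 factors of hepatocytes, was in all 5 and in 8.24% of all genes with a promoter. The 116 bases around it differed at 2 to 7 positions between any 2 of the genes. The windows of the gene most divergent between the sexes and of a copy not called between WT sexes are shown, with GTTAAT in capitals.
Serpina1e, chr12:103956960-103957075, minus strand: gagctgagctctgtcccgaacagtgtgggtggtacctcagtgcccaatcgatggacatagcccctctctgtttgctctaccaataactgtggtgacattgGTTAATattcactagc
Serpina1a, chr12:103863625-103863740, minus strand: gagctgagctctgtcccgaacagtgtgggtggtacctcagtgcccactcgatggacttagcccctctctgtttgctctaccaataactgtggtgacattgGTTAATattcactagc

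These 2 windows differed at 2 of 116 bases. The starts of these RefSeq promoters are not those of the Gencode models above, and the Serpina1e window lies within the longer Gencode model of that gene.

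WT males and WT females differed in 8 of the 10 genes, against 12.4% of all genes (2669 of 21583). By far the greatest difference was that of Serpina1e, which was at 2469 to 5660 CPM in males and 22.8 to 683 CPM in females. The lowest male was above the highest female, and the fitted ratio was 22.5 (log2 fold change 4.49, SE 0.70, adjusted p = 7.02e-05). The female library WT replicate 1 weighed on this value, which was 5.47 without it. Serpina3g (1.16, SE 0.22, adjusted p = 0.00045) and Serpina3k (0.69, SE 0.18, adjusted p = 0.0088) were also higher in males, with overlapping ranges.

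The other 5 were lower in WT males. Serpina6 was at 151 to 476.0 CPM (median 240) in males and 543 to 1539 CPM (median 816) in females, with no overlap (−1.72, SE 0.26, adjusted p = 3.55e-05). Serpina3m was at 151 to 218 CPM in males and 331 to 592 CPM in females (−1.29, SE 0.12, adjusted p = 4.91e-09), and Serpina1d at 1139 to 1613 and 1947 to 2489 CPM (−0.61, SE 0.086, adjusted p = 8.74e-06), neither with overlap. Serpina3n (−0.50, SE 0.11, adjusted p = 0.0031) and Serpina1b (−0.38, SE 0.11, adjusted p = 0.0214) overlapped between the sexes. The calls of Serpina3n and Serpina1b were lost under library size alone (−0.30 and −0.18), which moved the median of all genes from −0.0031 to 0.19, and that of Serpina1b also without male WT replicate 4 (−0.33) or female WT replicate 1 (−0.29). Serpina1a (−0.24, SE 0.12) and Serpina1c (0.069, SE 0.20) were not called.

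In SIRT6-tg mice 7 of the 10 genes differed between the sexes, against 23.1% of all genes (4987 of 21583). The 2 sex comparisons share no libraries with each other but share them with the comparisons of genotype. Serpina1e again was higher in males without overlap, at 3473 to 6230 CPM against 22.3 to 275 CPM (log2 fold change 5.89, SE 0.75, adjusted p = 2.51e-06). Serpina3k (0.91, SE 0.18, adjusted p = 0.00048) was now higher in every male than in every female. Serpina1c, not called between WT mice, was higher in SIRT6-tg males (1.01, SE 0.20, adjusted p = 0.00047).

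Of the genes lower in males, Serpina3m (−0.71, SE 0.12) and Serpina3n (−0.52, SE 0.11) did not overlap between the sexes, while Serpina6 (−1.005, SE 0.26) did. Serpina3g had opposite signs in the 2 genotypes. It was 2.23 times as high in WT males as in WT females, and lower in males than in females among SIRT6-tg mice (−1.04, SE 0.22, adjusted p = 0.0011). Serpina1d, lower in WT males, was at 1936 to 2456 CPM in SIRT6-tg males and 1953 to 2442 CPM in SIRT6-tg females (−0.015, SE 0.086, adjusted p = 0.92). The tests of these changes between genotypes are those of the sex difference in the genotype effect given above.

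**Figure D4:**
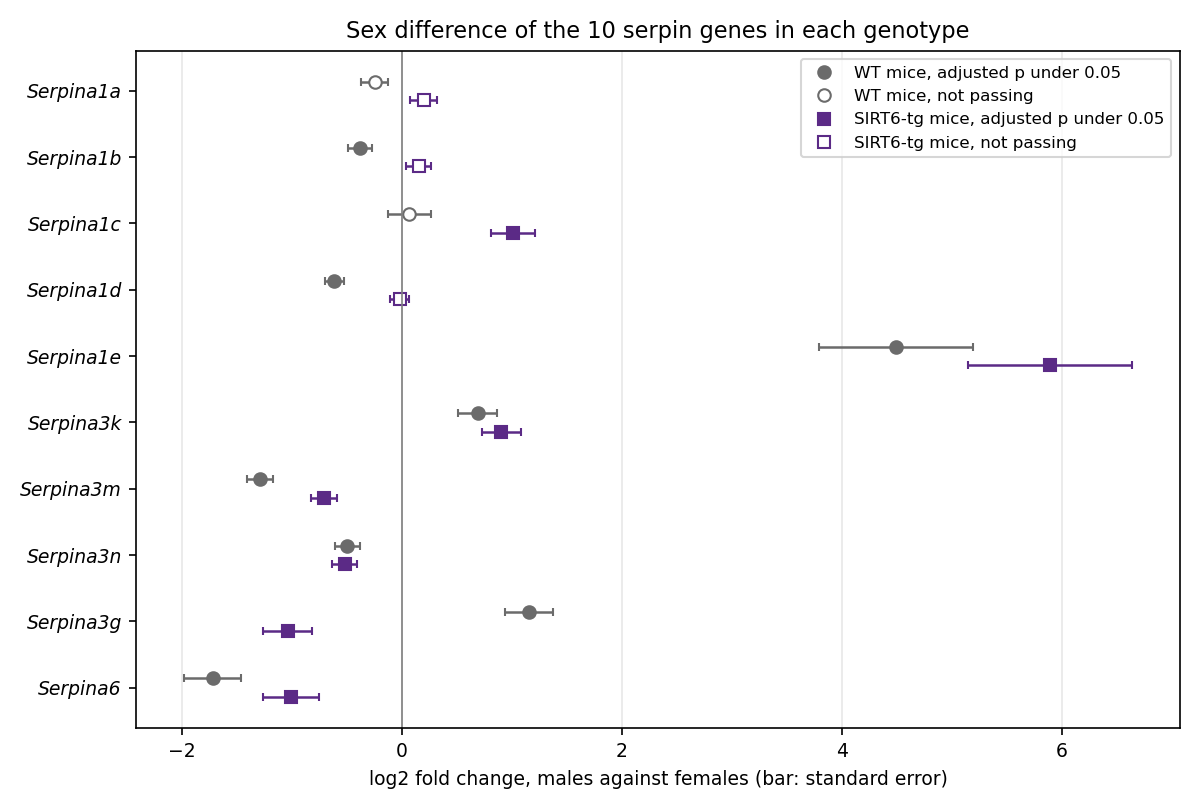
Log2 fold change of males against females for the 10 genes in WT mice (grey circles) and SIRT6-tg mice (purple squares), with the standard error as a bar and filled symbols for an adjusted p under 0.05. Serpina1e lies at 4.49 and 5.89, and Serpina3g lies at 1.16 in WT and −1.04 in SIRT6-tg mice.

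The make-up of the α1-antitrypsin transcripts, which does not depend on the scaling of a library, differed mainly by sex. Per kb of exon, Serpina1e was 29.2% to 48.96% of the summed Serpina1 level in male WT (median 38.8%) and 28.1% to 43.1% in male SIRT6-tg libraries (median 32.8%). In females it was 0.384% to 6.51% (median 1.27%) in WT and 0.319% to 3.94% (median 0.486%) in SIRT6-tg libraries. In female WT libraries Serpina1b was 33.1% to 36.4% and Serpina1d 27.5% to 37.99%, and their ranges overlapped. In male WT these shares were 17.4% to 24.2% and 14.9% to 21.4%.

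Genotype moved the shares little. Serpina1c was 13.5% ± 3.47 (SD, n = 7) in male WT and 17.3% ± 2.98 in male SIRT6-tg libraries, and its ranges, 9.94% to 20.6% and 14.2% to 22.9%, overlapped. In females it was 15.8% ± 2.45 in WT and 15.7% ± 2.54 in SIRT6-tg libraries. These are descriptions without a test. The shares of single genes depend on how length is counted. Divided by the number of windows of 50 bases unique among transcripts, Serpina1c rose to 30.7% in male WT and 33.3% in female WT. By this measure Serpina1e was 28.8% in male WT and 1.27% in female WT.

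**Figure D5:**
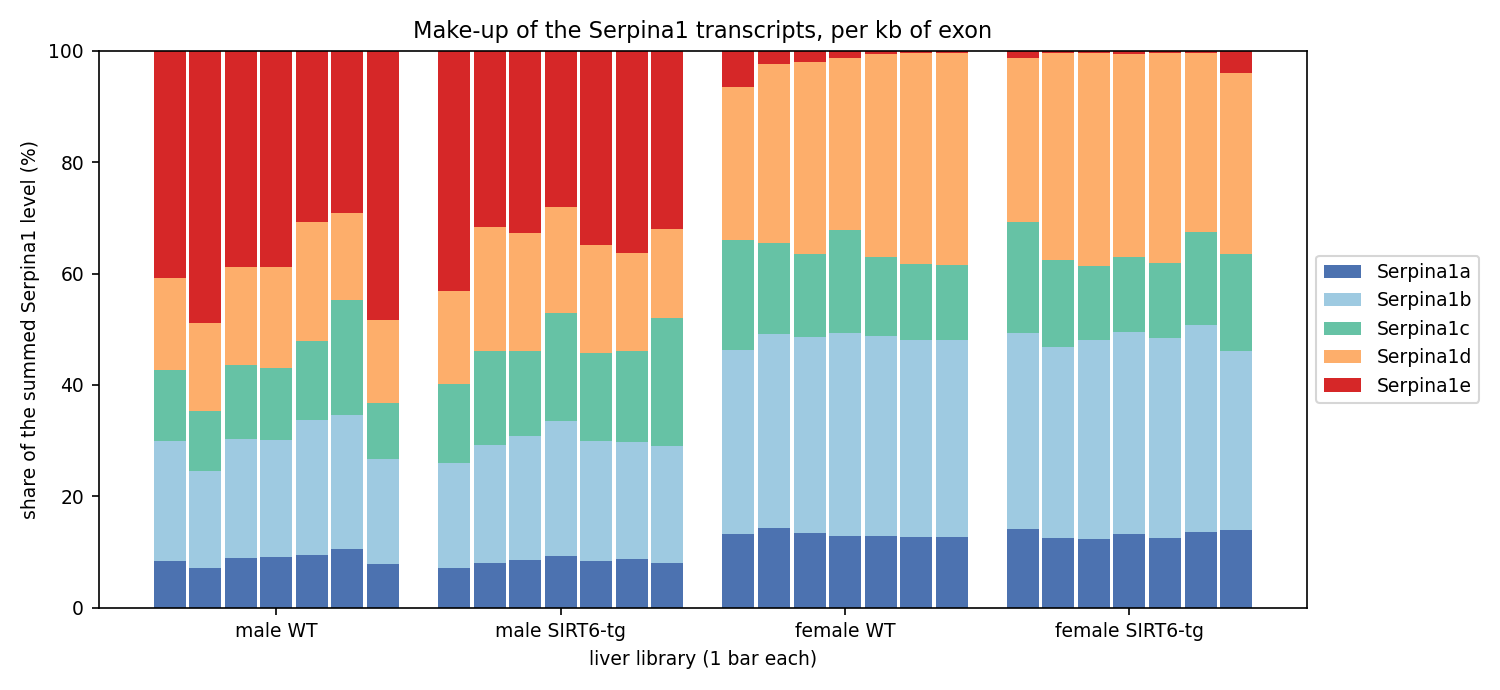
Share (%) of each of the 5 Serpina1 genes in their summed level per kb of exon, 1 stacked bar for each of 28 libraries in 4 groups. The share of Serpina1e, in red at the top, is 28.1% to 48.96% in male bars and at most 6.51% in female bars.

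The genes most like each member in their deviations from the group means are given with r as a description over 28 libraries. For Serpina1a they were Grpel1 and Tm2d2 (both r = 0.94), for Serpina1b Rbp4 (0.96), the plasma retinol carrier, and Cyb5a (0.94), and for Serpina1c Atraid and Vkorc1 (both 0.95). For Serpina1d the first was Grik5 (0.78), and for Serpina1e they were Mup21 (0.74), a major urinary protein gene, and Gm3839 (0.70). For Serpina3k they were Csad (0.72) and Gpr137 (0.67), for Serpina3m Ssrp1 (0.79) and Agt (0.78), for Serpina3n Itih3 (0.77) and C4b (0.76), and for Serpina6 Pcsk4 (0.82) and Cyp2a5 (0.81). Among the 10 genes, Serpina1a was close to Serpina1b and to Serpina1c (both r = 0.93), while Serpina3k and Serpina6 went apart (r = −0.56). What the sequence shared by copies adds to an r between them was not tested.

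In SIRT6-tg males 20.7% of all genes tested were called, and the counts below stand beside that share. Of 6 other serpins secreted by the liver, 5 were higher in SIRT6-tg males and none lower, with a median log2 fold change of 0.36. Serping1 (−0.083) did not pass the test. The lowest adjusted p were those of Serpinc1 (antithrombin, 0.39), Serpinf1 (0.43) and Agt (angiotensinogen, 0.45). Of 12 other clade A serpins tested, 1 was higher, Serpina9 (1.49), and 2 were lower, Serpina3f (−2.31) and Serpina3i (−1.55), near the share over all genes. Serpina9 and Serpina3i were at most at 2.10 and 0.734 CPM in any library of either male group. Of 15 secreted hepatocyte proteins, 7 were higher and none lower (median 0.32), with Rbp4 (0.49), Apoa2 (0.74) and Gc (0.32) first by adjusted p. Under library size alone the counts called were 1 of 6 and 0 of 15. Among markers of endothelial, stellate and bile duct cells, 3 of 8 were lower (Lrat, Dcn and Pecam1) and none higher. Of 6 hepatocyte markers only Alb (0.35) was called, as higher. All 6 had positive log2 fold changes, from 0.21 to 0.57 with a median of 0.36. Of 7 pancreas and blood markers, 1 was higher and 1 was lower.

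Acute phase proteins did not move as a group with Serpina3n. Of 15, 4 were lower in SIRT6-tg males, led by Lcn2 (−3.75), Saa2 (−2.77) and Orm2 (−2.28), while the fibrinogen chains Fga, Fgb and Fgg were the 3 higher, and the median was −0.066. Of 14 genes that regulate the family or its hormone, 3 were higher and none lower, near the 20.7% of all genes called in males. These were the hepatocyte factors Cebpa (0.47) and Foxa2 (0.63) and Hsd11b1 (0.59), which regenerates active glucocorticoid. Of 10 proteases tested as targets, Gzmb (−2.59), Ctss (−1.65) and Gzma (−3.31) were lower and Klkb1 (0.51), plasma prekallikrein, was higher. None of the genes in any of these lists was called in females.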

How the data were processed

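Livers of 28 mice, 7 per group, were analysed. The authors aligned single-end reads of NEBNext Ultra libraries to mm10 with STAR 2.5.0a, counted uniquely mapped reads on Gencode vM12 genes with HTSeq-count, and deposited raw read counts without normalization. The strand setting is not given in the sources used here. Sex, genotype and replicate number came from the labels, and 0 columns had no sample. Symbols and models were taken from Gencode vM21 of the same build. In it 43749 of 49585 features had the same versioned identifier, all 10 members among them, and 49326 features had a symbol.

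After size-factor scaling, 21583 genes had a mean count of at least 0.5 and were kept. TMM-normalized counts entered edgeR 4.0.16 (robust quasi-likelihood fit, R 4.3.3), all 4 groups in 1 fit without covariates, with adjustment by Benjamini-Hochberg. The authors tested with DESeq2, which served here as an alternative (DESeq2 1.42.0). The fit was tested on simulated data. The SE was computed as the log2 fold change over the root of F. Total counts were 18758863 to 35393069, and the number of mice, not depth, limits the precision for these abundant genes. No pair of libraries within a group agreed within sampling noise (chi-square per gene at least 12.2).

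The members and gene lists were chosen with earlier results of these data known. All 10 members are named. From other lists the 3 genes with the lowest adjusted p called in males are named, and any called in females. For the B cell list and the pancreas and blood list only counts are given. Results for 2 genes that these rules select are not reported here. The 2 genes most like each member were ranked by Pearson r of deviations from group means in log2 CPM (prior count 2, genes with a mean of 10 or more counts). Serpina3f is also described with its values beside Serpina3g, a choice made after seeing them. Windows of 50 and of 100 bases were compared between all Gencode transcripts. Alternatives were RLE, upper-quartile and no scaling factors, 2 other filters, DESeq2, only the groups compared, the replicate block, and each library left out.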

Additional observations from a re-analysis of the deposited data

Results flagged for a closer look

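Of the 40 combinations of a gene and a group, 6 held 1 library that stood far from the other 6 by Dixon's criterion. It flags about 1 in 20 groups by chance if values are normally distributed. The criterion was applied to CPM without logs, and each of the 6 was the highest library of its group. For values skewed upward the share flagged by chance is larger, and it was not measured here. Serpina1e was highest in female WT replicate 1 at 683 CPM, with the next library at 192 CPM, and in female SIRT6-tg replicate 7 at 275 CPM, with the next at 110.1 CPM. Serpina6 was highest in male WT replicate 5 at 476.0 CPM (next 257 CPM), in female WT replicate 1 at 1539 CPM (next 919.9 CPM), and in female SIRT6-tg replicate 6 at 1214 CPM (next 721 CPM). Serpina3m was highest in female WT replicate 2 at 592 CPM, with the next at 433 CPM. Female WT replicate 1 was the highest of its group for all 5 Serpina1 genes and for Serpina6, with Serpina1a at 1566, Serpina1b at 5180, Serpina1c at 1736 and Serpina1d at 2489 CPM.

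The genotype effect differed between the sexes by the test of the difference for Serpina1b (0.53 on the log2 scale, males minus females), Serpina1c (0.94), Serpina1d (0.60), Serpina3m (0.58) and Serpina3g (−2.19).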

How the results depend on the processing

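Over all alternatives, 1724 log2 fold changes of the 10 genes kept their direction and their side of the threshold, 90 lost a call, 1 gained one and 25 changed sign. The cause was not tested. With library size alone, 4 genes in place of 7 were called between male genotypes and 1 in place of 5 in the difference between the sexes, and the log2 fold change turned to −0.059 for Serpina1e in males, 0.0031 for Serpina1d in females and −0.088 for Serpina3k in the difference. That difference had 2 calls with RLE factors, with upper-quartile factors, without a filter, with the replicate block within each sex and without female WT replicate 1 and SIRT6-tg replicate 7 together, and 2 to 5 with any 1 library left out. Without those 2 female libraries, a choice made after seeing the data, values in females were 0.027 for Serpina1a, 0.047 for Serpina1b, 0.070 for Serpina1c and 0.042 for Serpina1d, and the difference for Serpina3n was 0.030. None of these sign changes was of a called value.

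With 1 library left out, values in females ran from −0.12 to 0.031 for Serpina1a, −0.12 to 0.019 for Serpina1b, −0.20 to 0.084 for Serpina1c, −0.043 to 0.020 for Serpina1d and −0.10 to 0.043 for Serpina3m. The difference for Serpina3n ran from −0.12 to 0.035, the WT sex difference of Serpina1c from −0.019 to 0.25 and the SIRT6-tg sex difference of Serpina1d from −0.047 to 0.019. Of the lists in males, other liver-secreted serpins had 3 calls with RLE or upper-quartile factors, 1 with library size alone and 3 to 5 with 1 library left out. Acute phase proteins had 4 with upper-quartile factors and 4 to 7 with 1 library left out. Secreted hepatocyte proteins had 4 with RLE factors, 2 with upper-quartile factors, 0 with library size alone and 2 to 8 with 1 library left out.

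The labels give no litter, so whether the replicate numbers pair littermates is not known. Correlations of same-numbered mice were above 0.1 in 2 of 7 pairs in males and 3 of 7 in females. With the replicate block, 7 genes were called in males, 0 in females, 8 between WT sexes and 7 between SIRT6-tg sexes. Shares by windows unique in the genome were not run, and windows unique among transcripts were used.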
